A study of Mus musculus with 4 samples.

Results

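The 48 genes described here encode the machinery that degrades messenger RNA in the nucleus and cytoplasm. They were taken by name from a fixed list of deadenylation, decapping, exosome, nonsense-mediated decay and AU-rich element genes, and all 48 were found among the 24497 listed features. Decay of a messenger RNA usually starts with shortening of its poly(A) tail by the CCR4-NOT and PAN2-PAN3 complexes. The body is then removed from the 5' end, after DCP2 takes off the cap and XRN1 digests the rest, or from the 3' end by the RNA exosome. RNA that carries N6-methyladenosine (m6A) can enter this path when the reader YTHDF2 binds it and recruits CCR4-NOT through the scaffold CNOT1. FTO is a demethylase that removes m6A.

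Spleens came from mice transplanted with MLL-AF9 acute myeloid leukaemia, named after the fusion gene that drives it. Sorted CD45.2+ leukaemic bone marrow cells of primary mice were injected into secondary recipients irradiated with 320 rads. From a week later the recipients were injected intraperitoneally for 20 days, every second day, with CS1, an FTO inhibitor, at 5 mg/kg or with PBS. CD45.2 cells were pulled from the spleen with a biotin-labelled antibody and streptavidin beads, and their poly(A) RNA was sequenced in 2 libraries per group. Neither the age and strain of the mice nor the number of animals behind a library is given by the labels. All 4 libraries come from leukaemic, irradiated recipients, so none represents healthy spleen. For CS1 replicate 2 the title and description say CS1 but the treatment field says CS2, and it was analysed as CS1.

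Library-wide values set the frame for the decay genes. Values are TPM (a length-normalized share of each library's transcripts), summing to between 977973 and 986345 per library, with no record of read depth. The 14 markers of leukaemic myeloid cells were all tested, with 8 higher and 5 lower, and summed to 4420 and 4427 TPM in PBS and to 6428 and 6455 TPM in CS1. Dendritic cell markers went from 362 and 371 TPM to 598 and 594 TPM (6 of 9 tested higher, 1 lower). Of that sum Flt3, which is in the leukaemic list too, held 187 and 190 TPM in PBS and 378 and 376 TPM in CS1. The leukaemic list also shares Mpo and Elane with the granule list and Csf1r with the monocyte list below. NK cell markers went from 21.2 and 18.96 TPM to 46.6 and 53.1 TPM (2 of 3 tested higher, 1 lower). Erythroid ones went from 19.1 and 19.6 TPM to 43.1 and 36.7 TPM (1 of 3 tested higher, 2 not called). B cell markers went from 75.0 and 72.7 TPM to 51.5 and 47.6 TPM (6 of 9 tested lower). Plasma cell markers went from 318 and 314 TPM to 246 and 257 TPM (1 of 4 tested higher, 3 lower). T cell markers went from 25.6 and 24.9 TPM to 19.5 and 22.4 TPM (1 of 8 tested higher, 4 lower). Megakaryocyte markers went from 9.56 and 8.81 TPM to 15.3 and 12.8 TPM (2 of 3 tested higher), with Pf4 and Ppbp at the lowest listed value. Stromal markers went from 47.9 and 46.3 TPM to 41.1 and 38.6 TPM (1 of 2 tested lower), with Pdgfra and Dcn at that value. Promyelocyte and granule markers summed to 12249 and 12305 TPM in PBS and to 29041 and 29145 TPM in CS1, with 12 of 15 higher and 3 lower. Monocyte and macrophage markers summed to 15639 and 15780 TPM in PBS and to 7595 and 7606 TPM in CS1, with 4 of 13 tested higher and 8 lower. The part of this shift in the results below was not tested, and in bulk RNA fewer cells of a type and less RNA per cell cannot be told apart.

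Decay genes moved in both directions between CS1 and PBS, with few large changes. The largest rise was that of the nonsense-mediated decay factor gene Upf3b (2.66 times the PBS mean), followed by the deadenylation genes Tob1 and Pan2 and the RNA-binding protein gene Zfp36l1. The largest falls were those of the decapping genes Dcp2 and Ddx6 and of the deadenylase gene Cnot6l. A gene was called when its adjusted p was under 0.05 in limma, a linear model fitted to log2(TPM + 1) across the 11866 features that reached 1 TPM in 2 or more libraries. All 48 genes passed that filter, each with a mean of at least 5 TPM.

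Of the 48 genes 34 were called, 20 higher and 14 lower in CS1. That is 70.8% of them, against 67.0% of all tested features and 71.4% of the 9973 that reached 5 TPM in 2 or more libraries. The shares by direction were 41.7% higher, against 35.3% of all features, and 29.2% lower, against 31.6%. These shares lie near the background, so the count of calls says nothing particular about decay genes. The all-feature shares of this fit, 35.3% higher and 31.6% lower, are the background of each count of called genes from it below, roles and further lists alike. Calls with a log2 fold change of at least 0.5 in size numbered 7, or 14.6%, against 28.2% of all tested features and 26.3% of those that reached 5 TPM. The median size of the change was 0.29 for decay genes and 0.31 for all features, and the median change was 0.07 and 0.04. The PBS and CS1 values did not overlap for 44 of the 48 genes (91.7%), against 84.4% of all features. Permuting 2 libraries against 2 for a single gene gives an exact two-sided p of 0.333 at best, so each call leans on the spread that limma pools over genes. Separate animals for the replicates are not mentioned in the labels, and the p-values measure only library-to-library spread, which may be technical. For the decay genes that spread was small, with a median difference between replicates of 0.04 on the log2 scale in each group. Over all tested features the median was 0.06 in each group.

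**Figure D1:**
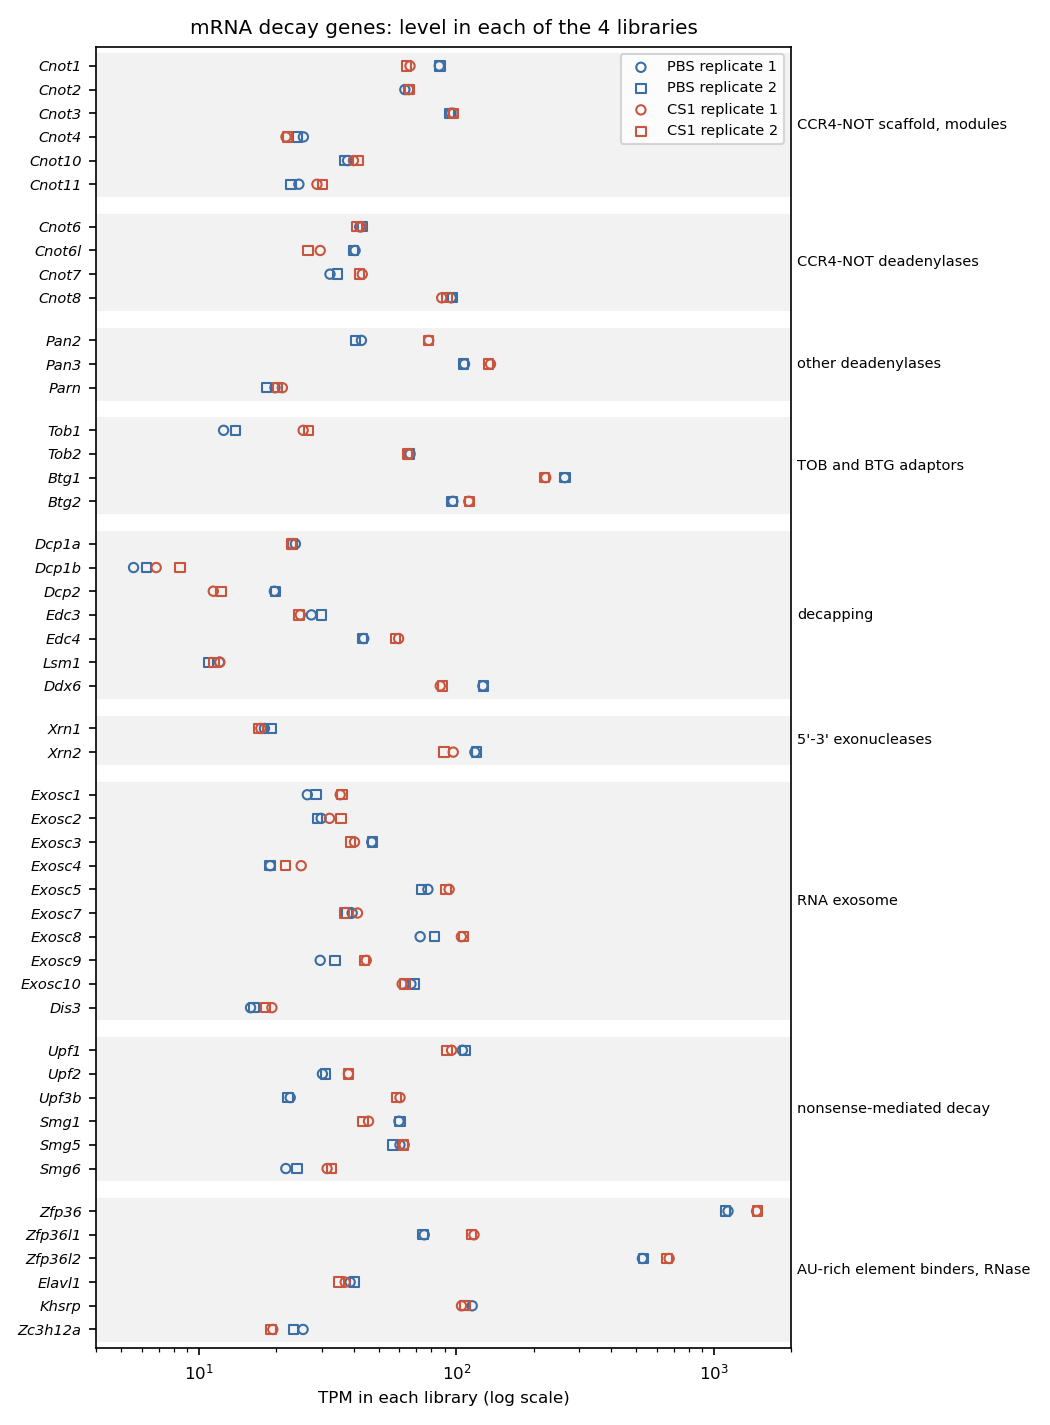
Level of each decay gene in the 4 libraries, in TPM on a log axis, with genes grouped by role. Circles and squares are replicates 1 and 2, in blue for PBS and red for CS1. Replicates of a group lie close together, Zfp36 and Zfp36l2 stand highest, and Upf3b, Pan2 and Tob1 show the widest gaps between the groups.

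Among the AU-rich element binders, the 3 genes of the ZFP36 family were higher in CS1. AU-rich element binders attach to AU-rich stretches in 3' untranslated regions of short-lived messages such as those of cytokines and early response genes. ZFP36, ZFP36L1 and ZFP36L2 recruit CCR4-NOT and destabilize their targets. The 9-base core TTATTTATT, written as DNA, was found in the 3' untranslated region of each of their own genes. It was searched on the transcribed strand in the longest 3' untranslated region of each gene in GENCODE M21 and occurred in 7 of the 48 decay genes (14.6%), against 8.11% of 10822 tested genes. The shorter core TATTTAT, contained in the longer one, occurred in 17 of the 48 (35.4%), against 29.1%. Lengths of the 3' untranslated regions were not matched in these shares. A match describes letters and not binding. Of the 7 genes only Elavl1, with 8 copies of the longer core, is not shown. The 29-base sites below show the core in capitals in the ZFP36 family and in 3 decay factors, a deadenylase, a decapping enhancer and an exonuclease, on mm10, 5' to 3' as in the RNA.
Zfp36, chr7:28376951-28376979, minus strand: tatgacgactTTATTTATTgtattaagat
Zfp36l1, chr12:80108167-80108195, minus strand: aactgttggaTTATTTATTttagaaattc
Zfp36l2, chr17:84184914-84184942, minus strand: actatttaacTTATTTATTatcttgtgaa
Cnot6l, chr5:96071161-96071189, minus strand: agggaagagaTTATTTATTtttgtttcct
Edc3, chr9:57750553-57750581, plus strand: agcttctagcTTATTTATTggcttgcctt
Xrn1, chr9:96055253-96055281, plus strand: actagaaaagTTATTTATTtgattaagcc

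All 3 ZFP36 family genes rose in CS1. Zfp36, also known as tristetraprolin and the most abundant decay gene, stood at 1135 and 1108 TPM in PBS and at 1465 and 1481 TPM in CS1. Its log2 fold change was 0.39 ± 0.02 (SE, n = 2 per group, limma adjusted p = 3.37e-05). Zfp36l1 stood at 75.0 and 74.2 TPM in PBS and at 117 and 115 TPM in CS1 (log2 fold change 0.63 ± 0.03, limma adjusted p = 2.07e-05). Both CS1 libraries lay above both PBS libraries for each of these genes. Zfp36l2 stood at 528 and 532 TPM in PBS and at 670 and 657 TPM in CS1 (0.32 ± 0.02, limma adjusted p = 6.53e-05). These 3 calls and their direction held in all 13 alternative settings. Zfp36 was 15.0 times the level of Zfp36l1 in PBS and 12.7 times in CS1, and 2.12 and 2.22 times that of Zfp36l2.

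The other genes of this role did not follow the family. Zc3h12a encodes Regnase-1, an RNase that cuts stem-loops in inflammatory messages, and fell from 25.4 and 23.4 TPM to 19.4 and 19.1 TPM (log2 fold change -0.33 ± 0.06, limma adjusted p = 0.00454). Elavl1, which encodes the stabilizing protein HuR, stood at 38.7 and 40.2 TPM in PBS and 37.0 and 35.0 TPM in CS1, short of the threshold (limma adjusted p = 0.0559, range 0.00939 to 0.222 over the alternatives). It passed with TMM scaling, which sets libraries level by a trimmed mean of log ratios (0.00939), and with robust variance estimation (0.0498). It shares 204 exon bases (1.97%) with Ccl25 on the opposite strand. Khsrp, which encodes a decay-promoting KH-domain protein, had overlapping groups (115 and 108 TPM in PBS, 105 and 108 TPM in CS1). Its limma adjusted p was 0.192, and 0.0266 with TMM scaling.

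Messages known to carry AU-rich elements were listed alongside as 36 genes, of which 29 were tested. Of these 17 were higher and 6 were lower, in a table where 35.3% of features were higher and 31.6% lower. Their median log2 fold change was 0.18, against 0.04 over all features. The list was written with earlier results of these data known. Fosb and Fos, subunits of the AP-1 transcription factor, rose by 1.14 and 0.44, while Socs3, a cytokine signalling inhibitor, and Mcl1, a survival factor, fell by 1.23 and 0.24 on the log2 scale. The AU-rich list shares Fos, Fosb, Jun, Junb, Ier2, Ier3, Dusp1 and Socs3 with a list of early response and dissociation-stress genes. Of the early response and stress genes, 16 of 27 tested were higher and 6 lower, with a median of 0.35. In that list Fosb and Klf2 rose by 1.14 and 0.70, and the heat shock genes Hspa1a and Hspa1b, near-identical copies whose values are uncertain, fell by 2.11 and 2.97. Its summed level was 8696 and 8725 TPM in PBS and 9771 and 9738 TPM in CS1, and its part in the rise of the ZFP36 family and Btg2 was not tested.

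Promoters are shown for Zfp36 and Btg2, early response genes whose windows each hold a motif found in no other decay gene with a matched promoter, and for Upf3b, the gene with the largest rise. Each window runs from 250 bases before to 50 bases after the RefSeq start on GRCm38.p6, the assembly of mm10, 5' to 3' along the gene, with matches in capitals.
Zfp36, chr7:28379179-28379478, minus strand: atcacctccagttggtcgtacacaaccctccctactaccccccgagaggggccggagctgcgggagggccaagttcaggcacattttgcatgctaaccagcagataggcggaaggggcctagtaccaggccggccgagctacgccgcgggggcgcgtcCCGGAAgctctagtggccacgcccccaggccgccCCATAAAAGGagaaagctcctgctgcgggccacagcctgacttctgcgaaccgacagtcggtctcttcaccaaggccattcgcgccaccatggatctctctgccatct
Btg2, chr1:134079106-134079405, minus strand: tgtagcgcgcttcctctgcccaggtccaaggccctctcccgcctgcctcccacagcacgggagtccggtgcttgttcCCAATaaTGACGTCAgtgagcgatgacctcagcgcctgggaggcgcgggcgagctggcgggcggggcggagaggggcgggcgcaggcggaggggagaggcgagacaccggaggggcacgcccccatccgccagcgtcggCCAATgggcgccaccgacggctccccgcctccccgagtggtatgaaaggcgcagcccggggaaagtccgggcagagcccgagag
Upf3b, chrX:37110273-37110572, minus strand: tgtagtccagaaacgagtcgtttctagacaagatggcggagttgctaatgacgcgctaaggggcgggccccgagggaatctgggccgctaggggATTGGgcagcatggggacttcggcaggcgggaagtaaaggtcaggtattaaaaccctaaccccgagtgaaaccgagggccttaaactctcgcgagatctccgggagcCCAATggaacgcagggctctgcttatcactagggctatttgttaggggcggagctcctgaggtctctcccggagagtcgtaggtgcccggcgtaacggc

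Promoters were found by symbol for 40 of the 48 genes, and 7 motifs were searched on both strands. A gene with several windows counts once if any of them matches, both among the 40 and among the 27025 genes with a window. Zfp36 was the one gene of the 40 with a CArG box, the serum response element core, 58 bases before its start, against 1.81% of all genes. Btg2 was the one with a cyclic AMP response element, TGACGTCA, 166 bases before its start, against 2.03% of all genes. The CCAAT box (CCAAT) occurred in 16 of the 40, against 41.1% of all genes. Of these, Btg2, Dis3, Edc4, Exosc1, Exosc2, Exosc5, Pan2, Tob1, Upf3b and Zfp36l1 were called higher, and Btg1 and Smg1 lower. Cnot3, Cnot6, Elavl1 and Khsrp, which also hold it, were not called. The ETS core (CCGGAA) occurred in 15 of the 40 against 16.7%, the NRF1 site in 9 against 3.37%, the E-box (CACGTG) in 3 against 8.09%, and the NF-kB site in 0 against 1.29%. The 27025 genes were not limited to tested ones, while all 40 decay genes were tested. These shares therefore do not set decay genes against other tested genes. The capitals in these windows do not overlap between motifs, and a match is a description of letters and not of binding.

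Nonsense-mediated decay genes held the largest single change. This path removes messages with premature stop codons and some normal ones. UPF1 is its helicase, SMG1 the kinase that phosphorylates UPF1, UPF2 and UPF3B link UPF1 to the exon junction complex, and SMG5 and SMG6 bind phosphorylated UPF1. Of the 6 genes 3 were higher and 2 were lower in CS1, against 35.3% and 31.6% of all features, with a median log2 fold change of 0.20 against 0.04. Upf3b (X, 37091678 to 37110322, mm10, minus strand) stood at 22.6 and 22.2 TPM in PBS and at 60.4 and 58.7 TPM in CS1. The CS1 libraries lay far above both PBS libraries, with a log2 fold change of 1.37 ± 0.04 (SE, n = 2 per group, limma adjusted p = 5.91e-06), which stayed between 1.23 and 1.40 over the alternatives. Its nearest tested protein-coding neighbours moved less, with log2 fold changes of 0.40 for the ribosomal protein gene Rpl39 on one side and 0.06 for Nkap on the other. The next ones out, Sept6 and Ndufa1, changed by 0.43 and 0.09.

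The core helicase and kinase genes went the other way from Upf3b. Smg1 stood at 59.8 and 60.4 TPM in PBS and at 45.6 and 43.4 TPM in CS1 (log2 fold change -0.43 ± 0.04, limma adjusted p = 0.000261). Upf1 fell from 107 ± 1.69 to 93.9 ± 2.69 TPM (SD, n = 2 each, limma adjusted p = 0.00385). Upf2 and Smg6, the endonuclease of the path, rose from 30.6 ± 0.544 and 22.9 ± 1.62 TPM to 38.1 ± 0.0283 and 32.1 ± 0.940 TPM. For each of these 4 genes the groups did not overlap. Smg6 shares 126 exon bases (1.49%) with Srr on the opposite strand. Smg5 stood at 60.4 and 56.7 TPM in PBS and at 62.7 and 62.4 TPM in CS1 and was not called (limma adjusted p = 0.0876, range 0.0232 to 0.701). It was called after quantile normalization (0.0232) and without PBS replicate 1 (0.0425).

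Upf3b also changed its standing among its partners. Its level was 0.375 and 0.382 times that of its paralogue Upf3a in the PBS libraries and 0.726 and 0.704 times in the CS1 libraries. Against Upf1 it stood at 0.215 and 0.206 in PBS and at 0.631 and 0.638 in CS1. Upf3a is outside the 48 genes, and it rose too, from 59.3 ± 1.53 to 83.3 ± 0.0849 TPM. It belongs to a list of 16 further genes of this path and of the exon junction complex, with 7 higher and 6 lower (median 0.01). In that list Magoh, a core subunit of the exon junction complex, rose by 0.41, and Etf1, the release factor, and Smg8, a regulator of SMG1, fell by 0.29 and 0.42 on the log2 scale. Of 26 tested messages known as substrates of the path, 17 were higher and 4 were lower, against 35.3% and 31.6% of all features (median log2 fold change 0.22 against 0.04). Among them Atf4, a stress transcription factor, and the small nucleolar RNA host gene Snhg8 rose by 0.49 and 0.75, while Map3k14 and Rassf1 fell by 0.53 and 0.25.

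**Figure D2:**
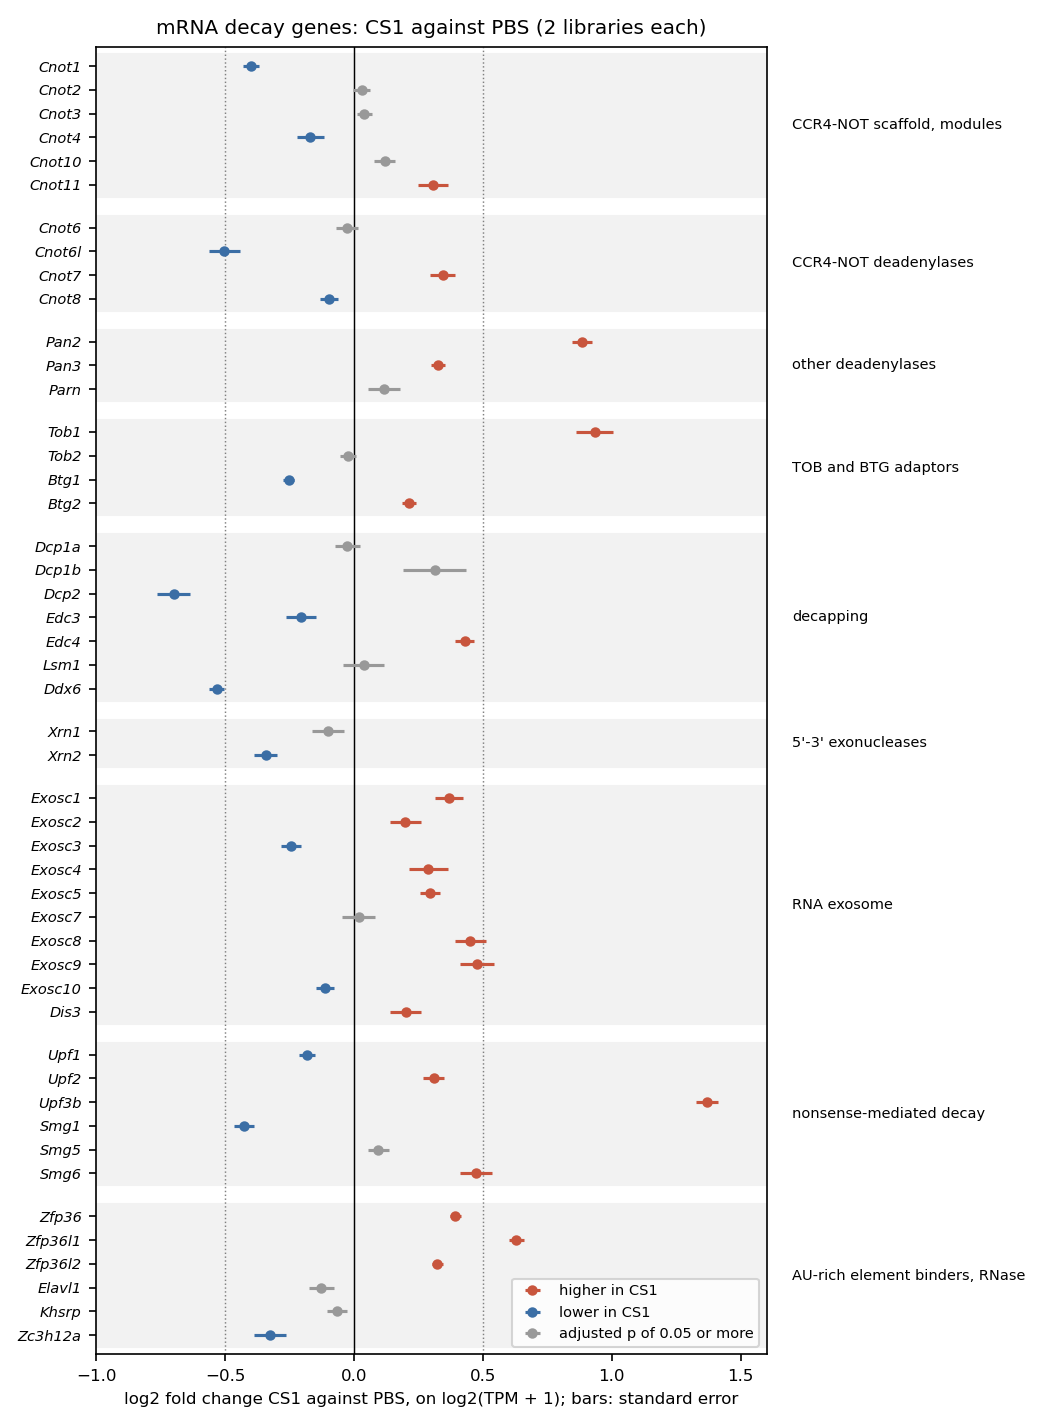
Log2 fold change of each decay gene between CS1 and PBS, on the log2(TPM + 1) scale with its standard error (2 libraries per group), grouped by role. Red and blue mark genes called higher and lower, grey marks genes not called, and dotted lines stand at 0.5 in size. Upf3b lies farthest to the right at 1.37 and Dcp2 farthest to the left at -0.70.

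The decapping genes were split. DCP2 is the catalytic subunit, DCP1A and DCP1B are its activators, EDC3 and EDC4 are enhancers, LSM1 belongs to the ring that binds shortened tails, and DDX6 is a helicase that joins deadenylation to decapping. One of the 7 was higher, 3 were lower and 3 were not called, with a median log2 fold change of -0.03. Dcp2 (18, 44380502 to 44424969, mm10, plus strand) fell from 19.6 and 19.9 TPM to 11.4 and 12.2 TPM, with a log2 fold change of -0.70 ± 0.07 (SE, n = 2 per group, limma adjusted p = 0.000266). Both CS1 values lay below both PBS values. Ddx6 (9, 44604892 to 44640731, plus strand) fell from 127 and 128 TPM to 86.6 and 88.5 TPM (-0.53 ± 0.03, limma adjusted p = 3.05e-05). Edc4 moved the other way, from 43.7 and 43.1 TPM to 59.7 and 57.9 TPM (0.43 ± 0.04, limma adjusted p = 0.000194).

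The ratio of Ddx6 to Edc4 accordingly went from 2.90 and 2.96 in the PBS libraries to 1.45 and 1.53 in the CS1 libraries. Edc3 fell from 28.6 ± 1.78 to 24.6 ± 0.212 TPM (SD, n = 2 each, limma adjusted p = 0.0217), a call lost without PBS replicate 2 (0.102), CS1 replicate 1 (0.0625) or CS1 replicate 2 (0.0771). It shares 1284 exon bases (22.1%) with Clk3 on the opposite strand, so its value is uncertain to that extent. Neither Dcp1a, at 23.7 and 23.1 TPM against 23.0 and 22.9 TPM, nor Lsm1, at 12.02 and 10.9 TPM against 12.1 and 11.5 TPM, was called (limma adjusted p = 0.668 and 0.696). Dcp1b, the lowest of the 48 genes, stood at 5.58 and 6.28 TPM in PBS and at 6.83 and 8.44 TPM in CS1 and was not called (limma adjusted p = 0.0656, range 0.031 to 0.425). It was called with robust variance estimation (0.0492), with the replicate number as a block (0.0389) and without CS1 replicate 1 (0.031). Among 17 further decapping genes 8 were higher and 4 were lower (median 0.16). Pnrc1, a decapping coactivator, and Lsm5, of the same ring as Lsm1, rose by 0.67 and 0.66, and Lsm14a and the scavenger decapping gene Dcps fell by 0.27 and 0.32 on the log2 scale.

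Exonucleases that digest decapped RNA were level or lower. Xrn2, the nuclear enzyme that also acts in transcription termination, fell from 118 and 119 TPM to 97.3 and 89.7 TPM (log2 fold change -0.34 ± 0.04, limma adjusted p = 0.000915). Xrn1, the cytoplasmic enzyme, stood at 18.0 and 19.2 TPM in PBS and at 17.4 and 17.1 TPM in CS1 and was not called (limma adjusted p = 0.19). Its adjusted p was 0.0446 with TMM scaling and 0.0326 after quantile normalization, within a range of 0.0326 to 0.541.

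CCR4-NOT genes changed unevenly, with the scaffold lower. CNOT1 is the scaffold on which the complex is built, CNOT2 and CNOT3 form one module, CNOT10 and CNOT11 another, and CNOT4 is a ubiquitin ligase. Cnot1 fell from 85.8 and 86.5 TPM to 66.1 and 64.1 TPM (log2 fold change -0.40 ± 0.03, limma adjusted p = 0.000151). Cnot11 rose from 24.5 and 22.8 TPM to 28.8 and 30.1 TPM (0.31 ± 0.06, limma adjusted p = 0.00446). The groups of both genes did not overlap, and both calls held in all 13 alternatives. Cnot2 (64.1 ± 1.46 and 65.5 ± 0.262 TPM in PBS and CS1) and Cnot3 (94.8 ± 0.764 and 97.5 ± 0.219 TPM) were not called (limma adjusted p = 0.462 and 0.233), Cnot3 being called after quantile normalization (0.0101). Cnot3 shares 433 exon bases (6.07%) with Leng1 on the opposite strand. Cnot10 lay at the threshold (limma adjusted p = 0.0501, range 0.0444 to 0.409), with 37.8 and 37.0 TPM against 39.8 and 41.5 TPM, and 4 alternatives called it. Cnot4 fell from 24.8 ± 0.891 to 22.0 ± 0.247 TPM (limma adjusted p = 0.0317), a call lost without PBS replicate 1 (0.141), CS1 replicate 1 (0.107) or CS1 replicate 2 (0.0777) and with the replicate block (0.0532).

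The catalytic subunits come as 2 pairs of paralogues, and 1 gene of each pair moved more than the other. Cnot6l fell from 40.4 and 39.9 TPM to 29.6 and 26.6 TPM (log2 fold change -0.50 ± 0.06, limma adjusted p = 0.000742), while Cnot6 stood at 42.7 ± 0.792 and 41.9 ± 1.17 TPM (limma adjusted p = 0.589). The ratio of Cnot6 to Cnot6l was 1.04 and 1.08 in PBS and 1.44 and 1.55 in CS1. Cnot7 rose from 32.3 and 34.5 TPM to 43.1 and 42.1 TPM (0.34 ± 0.05, limma adjusted p = 0.0014). Cnot8, the more abundant paralogue, stood at 95.5 and 96.8 TPM in PBS and at 87.7 and 92.1 TPM in CS1. Its fall of 0.10 on the log2 scale passed narrowly (limma adjusted p = 0.0491, range 0.00778 to 0.616) and was lost in 8 of the 13 alternatives, including those without PBS replicate 1 (0.108), PBS replicate 2 (0.168) or CS1 replicate 1 (0.207). The ratio of Cnot7 to Cnot8 was 0.338 and 0.356 in PBS and 0.492 and 0.457 in CS1, and no test was made of these ratios.

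Deadenylases outside CCR4-NOT were level or higher. PAN2 is the catalytic and PAN3 the RNA-binding subunit of a complex that trims long tails first, and PARN is a separate poly(A)-specific ribonuclease. Pan2 (10, 128303335 to 128321358, mm10, plus strand) rose from 42.8 and 40.7 TPM to 78.1 and 77.8 TPM. Its log2 fold change was 0.88 ± 0.04 (SE, n = 2 per group, limma adjusted p = 1.70e-05), against -0.09 and 0.21 for its nearest tested neighbours Stat2 and Cnpy2. The next tested genes out, Timeless and Cs, had log2 fold changes of 0.76 and -0.01. Pan3 rose less than Pan2, from 108 and 107 TPM to 136 and 133 TPM (0.32 ± 0.03, limma adjusted p = 0.000164). The ratio of Pan2 to Pan3 went from 0.398 and 0.382 to 0.575 and 0.584. Parn stood at 19.8 and 18.3 TPM in PBS and at 21.1 and 20.2 TPM in CS1 and was not called (limma adjusted p = 0.154).

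The TOB and BTG proteins, which restrain proliferation, bind CNOT7 and CNOT8 and bring the deadenylases to messages. Tob1 (11, 94211454 to 94215495, mm10, plus strand) rose from 12.5 and 13.9 TPM to 25.4 and 26.7 TPM, with a log2 fold change of 0.93 ± 0.07 (SE, n = 2 per group, limma adjusted p = 0.000123). Its paralogue Tob2 stood at 66.0 ± 0.120 and 65.0 ± 0.488 TPM (SD, n = 2 each, limma adjusted p = 0.547) and was called lower with TMM scaling (0.0284). Tob1 was thus 0.189 and 0.210 times the level of Tob2 in PBS and 0.389 and 0.413 times in CS1. Btg1, the most abundant of the 4 and a gene of quiescent haematopoietic cells, fell from 263 and 264 TPM to 222 and 220 TPM (-0.25 ± 0.02, limma adjusted p = 0.000196). Btg2, a p53-responsive early gene, rose from 96.9 and 96.2 TPM to 111.7 and 112.3 TPM (0.21 ± 0.03, limma adjusted p = 0.000857). The ratio of Btg1 to Btg2 went from 2.72 and 2.75 to 1.99 and 1.96.

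**Figure D3:**
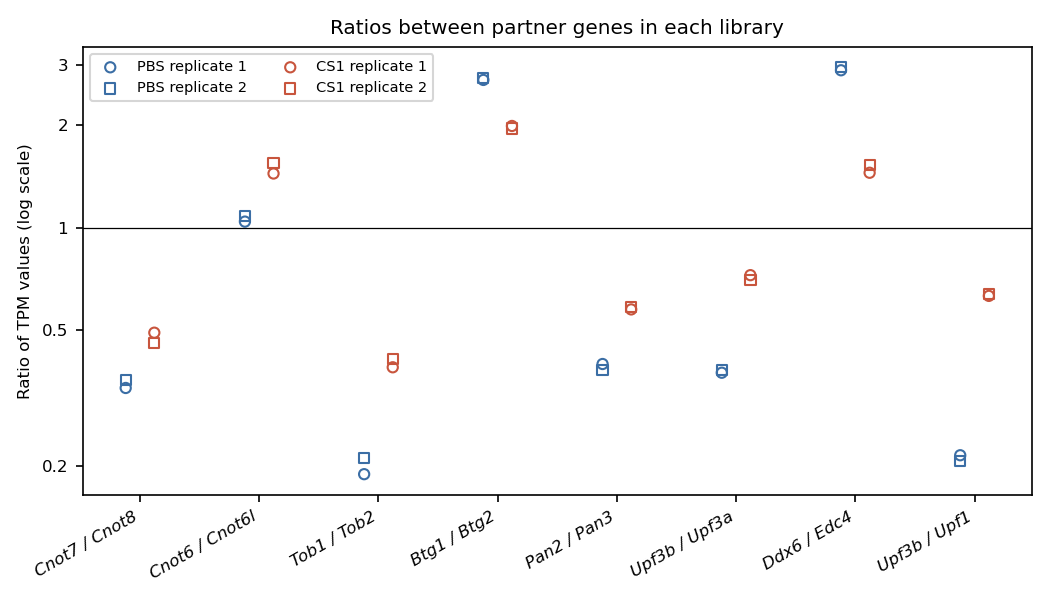
Ratio of the TPM values of 2 partner genes in each library, on a log axis, for 4 pairs of paralogues among the 48 genes, Pan2 with its complex partner Pan3, Ddx6 with Edc4, and Upf3b with Upf3a and Upf1. Circles and squares are replicates 1 and 2, blue for PBS and red for CS1. In each pair both CS1 ratios lie on one side of both PBS ratios, as for Upf3b to Upf1, at 0.215 and 0.206 in PBS and 0.631 and 0.638 in CS1. Where partners moved in opposite directions without overlap, as Upf3b and Upf1 or Ddx6 and Edc4 did, this follows from the single genes. Groups did not overlap for 84.4% of all tested features, and no such share was computed for ratios.

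Proteins that bind the poly(A) tail and other CCR4-NOT partners made up a list of 12 further genes. Of these 10 were matched by name and tested, with 5 higher and 1 lower (median 0.30). The nuclear and cytoplasmic poly(A)-binding protein genes Pabpn1 and Pabpc4 rose by 0.52 and 0.27, and Pabpc1, the main cytoplasmic one, fell by 0.21 on the log2 scale.

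RNA exosome genes moved by small amounts in both directions, and Exosc1, Exosc5, Exosc8 and Exosc9 were higher in every setting tried. The exosome is a ring of EXOSC4 to EXOSC9 under a cap of EXOSC1 to EXOSC3, with the nucleases DIS3 and EXOSC10 attached. Of the 10 genes 7 were higher and 2 were lower, against 35.3% and 31.6% of all features, with a median log2 fold change of 0.24 against 0.04. Without either PBS library 4 of the 10 were called higher and 1 lower. Exosc8 stood at 72.4 and 82.0 TPM in PBS and at 105 and 107 TPM in CS1 (log2 fold change 0.45 ± 0.06, limma adjusted p = 0.00114). Exosc5 stood at 77.5 and 73.0 TPM in PBS and at 93.7 and 91.2 TPM in CS1 (0.29 ± 0.04, limma adjusted p = 0.00117). Both ring genes were higher in both CS1 libraries. Exosc9, another ring gene, and Exosc1, of the cap, rose from 29.6 and 33.8 TPM to 44.7 and 44.0 TPM and from 26.4 and 28.5 TPM to 35.4 and 36.0 TPM (limma adjusted p = 0.00143 and 0.00156). Exosc3, also of the cap, fell from 47.1 ± 0.184 to 39.6 ± 0.940 TPM (SD, n = 2 each, limma adjusted p = 0.00234). Those 5 calls held in all 13 alternatives.

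The remaining exosome calls were small. Exosc4 and Exosc2 changed by 0.29 and 0.20 on the log2 scale, and the nuclease genes Dis3 and Exosc10 by 0.20 and -0.11 (limma adjusted p = 0.0175, 0.0296, 0.0301 and 0.0279). Each was lost without either PBS library, which left 5 calls among the 10 genes in each case (adjusted p between 0.0528 and 0.125 for those lost). Without CS1 replicate 1, Exosc4 (0.0657), Dis3 (0.132) and Exosc10 (0.116) were lost, and without CS1 replicate 2, Exosc2 (0.125) and Exosc10 (0.0521). Other settings ended these calls too, namely TMM scaling for Exosc2 (0.132) and Dis3 (0.106), quantile normalization for Exosc10 (0.251) and Dis3 (0.151), no filter on low values for Exosc2 (0.0694) and Exosc4 (0.0513), no variance trend for Exosc2 (0.0615) and Exosc10 (0.0720), and the replicate block for Dis3 (0.0523). Exosc7 had overlapping groups, with 39.4 and 37.6 TPM against 41.3 and 36.8 TPM (limma adjusted p = 0.827). Exosc9 shares 510 exon bases (10.8%) with the cyclin gene Ccna2 on the opposite strand, which was itself higher (log2 fold change 0.26), so the value of Exosc9 is uncertain to that extent. Exosc3, Exosc5, Exosc8 and Dis3 share between 2.05% and 5.66% of exon bases with a gene on the opposite strand. Among 19 tested cofactors of the exosome 9 were higher and 3 were lower (median 0.13). Mphosph6 and Hbs1l rose by 0.65 and 0.39, and Eri1, a 3' exonuclease, fell by 0.72 on the log2 scale. Ttc37, of the SKI complex, fell by 0.30, a call lost without PBS replicate 1 or CS1 replicate 2.

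**Figure D4:**
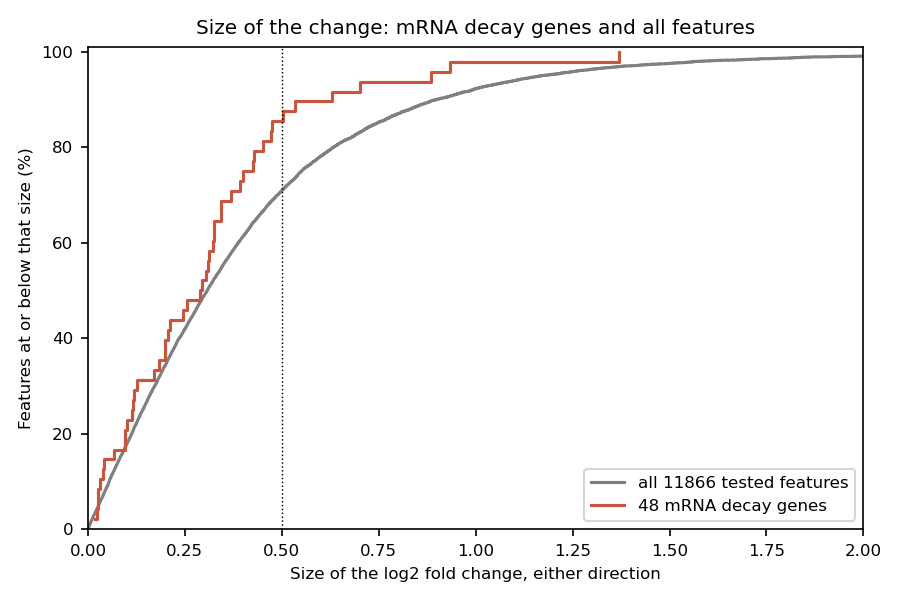
Cumulative share of features, in percent, against the size of the log2 fold change between CS1 and PBS in either direction, for the 48 decay genes (red) and all 11866 tested features (grey). The medians are 0.29 and 0.31. The red line lies above the grey one at 0.5 (dotted), where 14.6% of decay genes and 28.2% of all features are called beyond it.

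Genes that lead m6A-marked or silenced RNA into this machinery were listed for comparison. Of 20 tested genes of m6A writing, erasing and reading and of the RNase P and MRP complexes, which cut some m6A-marked RNA, 4 were higher and 7 were lower (median 0.06). Ythdf2, the reader that recruits CCR4-NOT, fell from 41.7 ± 0.445 to 35.8 ± 0.884 TPM (log2 fold change -0.21 ± 0.04, limma adjusted p = 0.00508) and was named for its role. By the naming rule Ythdf3 and Ythdc2, further readers, fell by 0.58 and 0.48, while Pop4, an RNase P subunit, and Rida, a bridge between YTHDF2 and RNase P, rose by 0.45 and 0.87. Fto, the target of CS1, was not called (30.2 ± 0.969 and 31.4 ± 0.735 TPM, limma adjusted p = 0.334). Of 22 tested genes of small-RNA silencing and other sequence-specific decay 6 were higher and 11 were lower (median -0.22). Ago2, the slicing Argonaute, and Zc3h12d, a relative of Zc3h12a, fell by 0.83 and 1.41, while Tnrc6a, an Argonaute partner that recruits CCR4-NOT, and Zcchc11, a terminal uridylyltransferase, rose by 0.39 and 0.99 on the log2 scale.

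Summed over the 48 genes, decay transcripts made up 0.425% and 0.423% of the PBS libraries and 0.487% and 0.485% of the CS1 libraries. Most of that difference lay with the AU-rich element binders, whose sum went from 1917 and 1886 TPM to 2413 and 2415 TPM. The decapping genes summed to 259 and 261 TPM in PBS and to 224 and 226 TPM in CS1. The exosome genes summed to 423 and 435 TPM in PBS and to 498 and 492 TPM in CS1. The CCR4-NOT scaffold and module genes summed to 332 and 330 TPM in PBS and to 319 and 321 TPM in CS1. These sums follow the abundant genes and were not tested. They were not rescaled either, and the factors that TMM scaling divides by were 0.973 and 0.974 in PBS and 1.03 and 1.02 in CS1.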

How the data were processed

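Poly(A) RNA was sequenced in 4 libraries, 2 PBS and 2 CS1, grouped by their titles. STAR, RSEM and mm10 are named in the submitters' processing notes, without versions or roles. The deposited values were taken as TPM computed by the authors, a unit given by neither header nor labels and inferred from column sums, decimals and the mention of RSEM. No value is under 0.01, so 0.01 stands in for 0. TPM keeps no depth, so no counting interval is given, and replicates could not be compared with sampling noise. TPM is a share, so abundant transcripts affect the rest.

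Features reaching 1 TPM in 2 or more libraries were tested on log2(TPM + 1) with limma 3.58.1 (R 4.3.3), variance trend on, two-sided, with Benjamini-Hochberg adjustment over all 11866 features. Fold changes on this scale understate low genes. Positions, exons and 3' untranslated regions are from GENCODE M21, and promoters from RefSeq. The sources used here do not say whether counting used strand. Alternatives were other pseudocounts (0.1 and 5), filters, scalings (quantile, and TMM, written out in R) and variance models, a replicate block, and each library left out. The rule for named genes gave library values for called genes with a log2 fold change of at least 0.5 in size and for the 2 with the smallest p in each role, and from each further list the 2 called genes with the smallest p in each direction. Members, lists and rules were chosen with earlier results of these data known.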

Additional observations from a re-analysis of the deposited data

How the results depend on the processing

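Over the 13 alternatives the number of decay genes called higher ranged from 17 to 22, against 20, and of those called lower from 10 to 18, against 14. Of the 34 called genes 27 kept their call and direction in every alternative, and no called gene changed direction. The 7 others, Cnot4, Cnot8, Edc3, Exosc2, Exosc4, Exosc10 and Dis3, lost it in at least 1. Each lost it with a library left out, and 6 of them, all but Edc3, also in another setting. Of the 14 genes not called 8 were called in some alternative. TMM scaling (a trimmed mean of log ratios) gave 18 higher and 18 lower. Of all 11848 features tested with it, 3519 were higher and 4429 lower. This scaling turned the uncalled changes of Cnot2 to -0.0458, Cnot3 to -0.0356, Lsm1 to -0.0330 and Exosc7 to -0.0576. Quantile normalization turned those of Tob2 to 0.0390, Lsm1 to -0.0815 and Khsrp to 0.0327. With a library left out, uncalled Exosc7 ranged from -0.0650 to 0.0995, Lsm1 from -0.0284 to 0.104 and Cnot6 from -0.0547 to 0.0008. The same-numbered libraries did not deviate together (correlation 0.02). With the replicate block 20 genes were called higher and 12 lower, beside 4110 and 3640 of all 11866 features. The calls of Cnot4, Cnot8 and Dis3 were lost there and that of Dcp1b was gained. The cause of these changes was not tested, apart from fewer libraries where one was left out. Depth is unknown and limits the low genes most.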

Other observations

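Over all 10822 tested genes with an annotated 3' untranslated region, the 9944 without the core TTATTTATT had a median log2 fold change of 0.03, the 686 with 1 copy of -0.05 and the 192 with 2 or more copies of 0.04. For the shorter core TATTTAT the medians were 0.06 for 7671 genes without it, -0.04 for 2037 genes with 1 copy and -0.05 for 1114 genes with 2 or more. The 3' untranslated regions of these 3 groups differed in median length, at 816, 1837 and 2852 bases. No test was made of these medians. Elavl1 held 8 copies of the longer core, some of which overlap.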
